A study of Drosophila melanogaster with 12 samples.

Results

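The 35 cytosolic glutathione S-transferase (GST) genes of Drosophila melanogaster were followed in S2 cells, an embryonic cell line with hemocyte-like properties, under changed levels of Brahma (BRM), the ATPase of the SWI/SNF chromatin remodeling complex. The members were taken by FlyBase symbol from 6 classes, 11 Delta, 14 Epsilon, 3 Omega, 1 Sigma, 4 Theta and 2 Zeta genes, and all 35 were matched to gene identifiers among the 12986 genes of the RNA-seq table and the 13924 genes of the ChIP-seq table. RNA-seq of poly(A) RNA covered 8 libraries in 4 groups, each with 2 biological replicates, and ChIP-seq covered 2 immunoprecipitations (IP) of endogenous BRM and 2 Input libraries. Control cells received dsRNA against GFP and BRM-depleted cells dsRNA against BRM, at 30 µg per well for 48 h. The sample titles call both "empty" without naming a plasmid, and the methods describe only control S2 cells. The recBRM-V5 and recBRM-K804R-V5 groups were stably transfected lines that also received the BRM dsRNA and expressed V5-tagged wild-type BRM or the ATPase-inactive K804R mutant from the metallothionein promoter, induced with copper sulfate for the final 24 h. The sources used here do not say whether the other groups received copper, or whether each stable line was a single clone, so the recombinant protein, the copper, the plasmid and the history of the line cannot be told apart in any comparison of a recombinant line with control or BRM-depleted cells.

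GST enzymes join the tripeptide glutathione to electrophilic compounds, which makes those compounds more soluble and marks them for export. The Delta and Epsilon classes belong to arthropods and have expanded as gene clusters whose members take part in the breakdown of insecticides, plant toxins and products of lipid peroxidation. The Omega, Sigma, Theta and Zeta classes are shared with other animals, and Zeta enzymes also act in tyrosine breakdown.

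The promoters of 6 members are shown because these genes carried the main differences described below. GstD5, GstD6 and GstO3 rose strongly in at least one recombinant line, GstD2 and GstD7 separated both lines in opposite directions, GstD2 is also the closest relative of GstD5 in coding sequence, and GstD1 had the highest level per length in control cells. Each sequence holds the 100 bases before the annotated gene start, read 5′ to 3′ from the BDGP6 reference genome (RefSeq release 6 assembly with the BDGP6.54 annotation), and capitals mark TATAAA on either strand, written TTTATA where it lies on the other one.
GstD1, chr3R:12369269-12369368, minus strand: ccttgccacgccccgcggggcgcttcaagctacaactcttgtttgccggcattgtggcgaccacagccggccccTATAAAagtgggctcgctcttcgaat
GstD2, chr3R:12371871-12371970, plus strand: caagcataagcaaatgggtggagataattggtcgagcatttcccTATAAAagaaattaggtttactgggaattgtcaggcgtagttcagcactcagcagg
GstD5, chr3R:12375633-12375732, plus strand: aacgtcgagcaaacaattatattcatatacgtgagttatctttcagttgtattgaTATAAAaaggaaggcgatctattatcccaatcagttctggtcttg
GstD6, chr3R:12377028-12377127, plus strand: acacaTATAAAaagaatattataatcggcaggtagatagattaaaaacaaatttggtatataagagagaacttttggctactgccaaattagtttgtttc
GstD7, chr3R:12378400-12378499, plus strand: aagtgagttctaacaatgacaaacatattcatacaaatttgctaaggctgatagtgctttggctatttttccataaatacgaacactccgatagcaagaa
GstO3, chr3L:8518785-8518884, plus strand: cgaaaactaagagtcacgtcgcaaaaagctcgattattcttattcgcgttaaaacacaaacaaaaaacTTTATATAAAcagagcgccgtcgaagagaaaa
TATAAA was present, in the window from 250 bases before to 50 bases after the start and on either strand, in 9 of the 11 Delta promoters (81.8%), in 21 of all 35 members (60.0%) and in 45.8% of the 13968 promoters of protein-coding genes. Its position before the start varied between the members shown, from 26 bases in GstD1 and 45 in GstD5 to 56 in GstD2 and 95 in GstD6, and in GstD7 the match lay 166 bases before the start, outside the printed stretch. The core of the antioxidant response element, TGACNNNGC, was found in 1 of 35 promoters (2.86%), that of GstE3, against 8.62% of all promoters. The core of the metal response element, TGCACNC or TGCGCNC, was found in 5 of 35 (14.3%), against 18.7% of all promoters, and 3 of these 5 were the Delta genes GstD8, GstD10 and GstD11. These are matches of letters in a window and were not tested as binding sites.

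The GST family lay largely in clusters. All 11 Delta genes stood on arm 3R between 12364776 and 12385624, a stretch of 20849 bases with 8 genes on the plus strand and 3 on the minus strand, and 1 further protein-coding gene, CG10035, lay among them. Of the 14 Epsilon genes, 10 (GstE1 to GstE10) stood on arm 2R between 18396638 and 18409835. The 3 Omega genes lay on arm 3L between 8518885 and 8524866, around the eye pigment gene sepia (se). Coordinates are those of the BDGP6.54 annotation, not of the deposited tables, which carry gene identifiers only.

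Closely related copies can exchange reads in counting. Pairwise identity of the coding sequences within the Delta class had a median of 65.2% (range 47.8% to 82.6%), with GstD2 and GstD5 the most alike, and within the Epsilon class a median of 56.7% (range 49.6% to 74.3%). All 50-base words in the exons of 33 members occurred once in the reference genome, counting both strands, and 99.6% did in GstD2 and GstD5. Exonic overlap with an antisense neighbor was 61 bases or less in every member except GstT2 (223 bases with CG12926), and although the libraries came from a directional kit, the strand setting of the counting is not given in the sources used here.

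Total counts per RNA-seq library ranged from 6600562 to 10287294, and levels are given below as CPM, counts scaled to a common library total after TMM normalization. The target of the dsRNA, brm, stood at 433 and 446 CPM in control cells and at 177 and 175 CPM in BRM-depleted cells, and its counts in the recombinant lines, which include reads of the transgenes, were 16635 and 24893 CPM with recBRM-V5 and 2118 and 2005 CPM with recBRM-K804R-V5. Of the 9 hemocyte markers all were detected, with summed levels of 7635 to 14967 CPM over the 8 libraries, while the 4 fat body markers never exceeded 6 counts and none of them passed the filter on low counts. Col4a1 (3198 to 7240 CPM) and vkg (2740 to 6853 CPM) made up the largest parts of the hemocyte sum. The neuron marker elav was also detected, at 70.5 to 101 CPM in the libraries without a recombinant protein. The hemocyte markers were not alike across the lines, since NimC1 was at 1.18 to 2.74 CPM without a recombinant protein, at 376 and 205 CPM with recBRM-V5 and at 6.99 and 5.6 CPM with recBRM-K804R-V5, and Hml was at 737 to 993 CPM without, 254 and 223 CPM with recBRM-V5 and 97.7 and 29.7 CPM with recBRM-K804R-V5. Their part in the GST results was not tested. In bulk RNA, fewer cells carrying a transcript and less transcript per cell cannot be told apart.

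In control cells GST transcripts were spread over many members rather than 1. Per kilobase of exon, GstD1 (147 and 239 CPM per kb) was the highest, followed by GstO3 (129.6 and 121), GstE2 (113 and 80), GstE6 (101 and 70.4) and GstD3 (95.5 and 69.6). GstD1 encodes the main Delta enzyme, known for its activity against the insecticide DDT and as a reporter gene of the oxidative stress response. In all, 22 members were above 10 CPM per kb and 9 were below 1 CPM per kb, and GstE4, GstE14 and GstD8 had no counts in either control library. In the order of levels, 28 of the 34 pairs of neighbors had overlapping library values and so did not differ beyond their spread. GstE14, required for ecdysone synthesis in the prothoracic gland of the fly, was thus without counts in control cells.

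**Figure D1:**
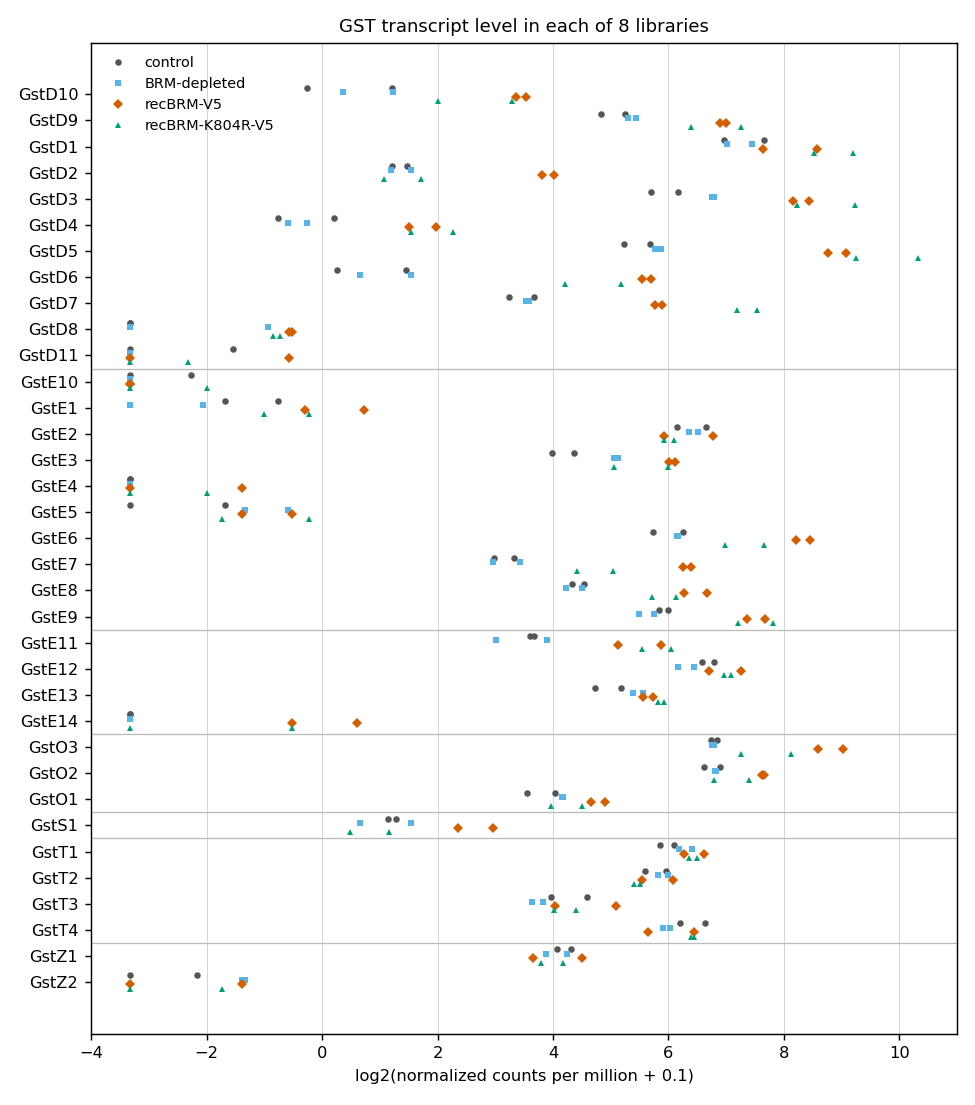
Level of each GST gene, as log2(CPM + 0.1), in every RNA-seq library, 2 points per group, ordered by class and, within the clusters, by position along the chromosome (grey lines separate the Epsilon cluster, the other Epsilon genes and the classes). Most Delta and Epsilon genes from GstD10 to GstE11 have recombinant-line points to the right of the control points, Theta and Zeta points lie close together, and 8 members lie at the left with at most 11 counts in any library.

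The summed level of the family was 1233 and 1173 CPM in control cells, 1298 and 1217 CPM in BRM-depleted cells, 3139 and 3552 CPM with recBRM-V5 and 2844 and 4394 CPM with recBRM-K804R-V5. Every recombinant library thus held more GST transcript than every library without a recombinant protein, and the group means were 2.78 times (recBRM-V5) and 3.01 times (recBRM-K804R-V5) the control mean, against 1.05 times after depletion. The Delta class accounted for the largest part of that difference in both lines. Its sum went from 319 ± 20.8 CPM (SD, n = 2) in control cells to 1351 ± 172 CPM with recBRM-V5 and 2197 ± 938 CPM with recBRM-K804R-V5, and the wide SD of the last group came from replicate 2 at 2860 CPM against 1534 CPM in replicate 1. The Epsilon sum was 407 ± 44.8 CPM in control cells and 1056 ± 21.8 and 797 ± 12.0 CPM with recBRM-V5 and recBRM-K804R-V5, and the Theta sum stayed between 208 and 244 CPM in all 8 libraries. These sums are descriptions without a test.

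**Figure D2:**
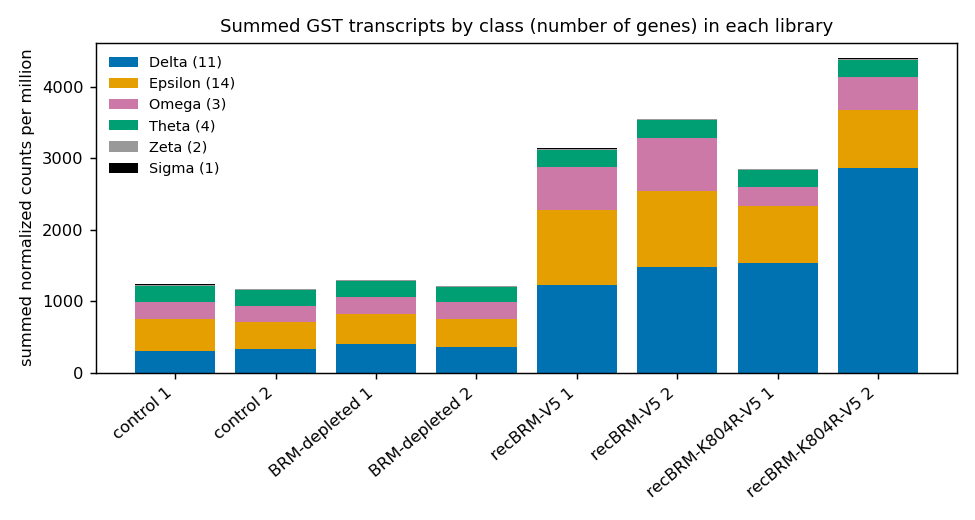
Stacked bars of the summed CPM of the GST classes in each RNA-seq library, with the number of genes of each class in the legend and the axis starting at 0. The Delta segment is between 305 and 398 CPM in the 4 libraries without a recombinant protein and between 1229 and 2860 CPM in the 4 with one, while the Theta segment is nearly level.

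Composition differed as well. GstD1 made up 13.5% of all GST CPM in control cells and was the largest contributor there, while GstD5 made up 3.67%. With recBRM-V5 GstD5 (14.6%) and GstO3 (13.5%) led, and with recBRM-K804R-V5 GstD5 alone reached 26.1%, ahead of GstD1 (13.2%) and GstD3 (12.4%).

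Expression of recBRM-V5 in the depletion background was compared with control cells to ask which genes respond to wild-type BRM. Of the 35 members, 27 passed the filter on low counts and were tested, and 19 of the 27 were higher with recBRM-V5 and 0 lower (edgeR quasi-likelihood test, Benjamini-Hochberg adjusted p below 0.05 over all 8165 tested genes), beside 10.9% of all tested genes called higher and 7.24% called lower. The higher members were 8 of 9 tested Delta genes, 7 of 9 Epsilon genes, all 3 Omega genes and the Sigma gene, whereas 0 of 4 Theta genes and 0 of 1 tested Zeta gene were called. The median log2 fold change of the tested members was 1.87, beside 0.00 over all tested genes. Since members pass the filter if they are high in any group, these counts describe the tested members only.

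Among Delta genes, GstD6 changed most. GstD6 was at 2.64 and 1.1 CPM in control cells, 1.47 and 2.8 in BRM-depleted cells, 46.4 and 51.9 with recBRM-V5 and 18.4 and 36.2 with recBRM-K804R-V5. This was a 25.7-fold difference between recBRM-V5 and control cells (log2 4.68 ± 0.49 SE, adjusted p = 0.00102). GstD5 started higher, at 50.9 and 37.5 CPM in control cells, 58.5 and 54.2 in BRM-depleted cells, 434 and 539 with recBRM-V5 and 609 and 1281 with recBRM-K804R-V5. Its libraries did not overlap between recombinant and other groups, and it was 11-fold higher with recBRM-V5 (log2 3.46 ± 0.36, adjusted p = 0.00104). GstD2, the closest relative of GstD5 in coding sequence, was at 2.22 and 2.68 CPM in control cells, 2.2 and 2.8 in BRM-depleted cells, 13.9 and 16.1 with recBRM-V5 and 2 and 3.18 with recBRM-K804R-V5. It thus rose 6.11-fold with recBRM-V5 (adjusted p = 0.00201), while its recBRM-K804R-V5 libraries overlapped with those without a recombinant protein.

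The other Delta genes fell into those with and those without a substantial level at the start. GstD3 was at 71.3 and 51.9 CPM in control cells, 108 and 111 in BRM-depleted cells, 344 and 285 with recBRM-V5 and 299.8 and 601 with recBRM-K804R-V5. GstD7 was at 12.7 and 9.38 CPM in control cells, 11.5 and 11.9 in BRM-depleted cells, 59.2 and 54.3 with recBRM-V5 and 145 and 185 with recBRM-K804R-V5. Both were higher in every recombinant library than in any other, with GstD3 5.11-fold (adjusted p = 0.00289) and GstD7 5.13-fold higher with recBRM-V5 (adjusted p = 0.000576). GstD9 was at 37.9 and 28.5 CPM in control cells, 39.1 and 43.4 in BRM-depleted cells, 119 and 128 with recBRM-V5 and 84 and 153 with recBRM-K804R-V5. It rose 3.71-fold with recBRM-V5 (adjusted p = 0.00381). GstD10 and GstD4 were low genes, with GstD10 at 2.22 and 0.731 CPM in control cells, 1.18 and 2.24 in BRM-depleted cells, 10.1 and 11.4 with recBRM-V5 and 3.9 and 9.69 with recBRM-K804R-V5. GstD4 was at 1.06 and 0.487 CPM in control cells, 0.735 and 0.56 in BRM-depleted cells, 2.74 and 3.84 with recBRM-V5 and 2.8 and 4.69 with recBRM-K804R-V5. Both were called with recBRM-V5 (adjusted p = 0.0153 for GstD10 and 0.0296 for GstD4) on counts of 4 to 21 per library in control cells.

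GstD1 was the exception among the tested Delta genes. It was at 124 and 202 CPM in control cells, 175 and 129.6 in BRM-depleted cells, 198 and 382 with recBRM-V5 and 369 and 586 with recBRM-K804R-V5. Its recBRM-V5 and control values overlapped, and the difference of 0.83 ± 0.38 on the log2 scale was not called (adjusted p = 0.175).

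In the Epsilon cluster 5 of the 6 tested genes were higher with recBRM-V5, GstE3 and GstE6 to GstE9. GstE7 was at 9.92 and 7.8 CPM in control cells, 10.6 and 7.71 in BRM-depleted cells, 75.7 and 83.3 with recBRM-V5 and 21.2 and 32.7 with recBRM-K804R-V5. It rose 8.94-fold with recBRM-V5 (log2 3.16 ± 0.28, adjusted p = 0.000587), the largest Epsilon change. GstE6 was at 76.2 and 52.9 CPM in control cells, 71.3 and 70.8 in BRM-depleted cells, 352 and 295 with recBRM-V5 and 126 and 202 with recBRM-K804R-V5. Its recBRM-V5 libraries stood apart from all others, 5.01-fold above control cells (adjusted p = 0.00147). GstE8 was at 23.2 and 20 CPM in control cells, 22.5 and 18.5 in BRM-depleted cells, 77.4 and 102 with recBRM-V5 and 52.7 and 70 with recBRM-K804R-V5. GstE9 was at 63.9 and 56.8 CPM in control cells, 53.7 and 45 in BRM-depleted cells, 164 and 204 with recBRM-V5 and 224 and 148 with recBRM-K804R-V5. GstE3 was at 20.6 and 15.7 CPM in control cells, 34.8 and 33.2 in BRM-depleted cells, 68.7 and 64 with recBRM-V5 and 33.3 and 63.9 with recBRM-K804R-V5. All of them were called with recBRM-V5, at 4.13-fold (GstE8), 3.05-fold (GstE9) and 3.65-fold (GstE3), and their adjusted p values lay between 0.00124 and 0.00542. GstE2 stood beside them without a call. It was at 100.5 and 71.2 CPM in control cells, 82 and 91.6 in BRM-depleted cells, 109 and 60.4 with recBRM-V5 and 67.9 and 60.4 with recBRM-K804R-V5, with overlapping groups and a log2 fold change of -0.02 ± 0.28 (adjusted p = 0.973).

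Of the 4 Epsilon genes outside the cluster, GstE11 and GstE13 were called with recBRM-V5. GstE11 was at 12.1 and 12.7 CPM in control cells, 14.7 and 7.99 in BRM-depleted cells, 34.7 and 58.4 with recBRM-V5 and 65.9 and 46.5 with recBRM-K804R-V5, a 3.74-fold increase with recBRM-V5 (adjusted p = 0.00962). GstE13 changed by less, from 36.1 and 26.4 CPM in control cells to 53 and 47.2 with recBRM-V5 and 60.3 and 56.3 with recBRM-K804R-V5, but BRM-depleted cells were at 46.9 and 41.8, just below the recombinant lines. It was called with recBRM-V5 at 1.6-fold (adjusted p = 0.0421). GstE12 was not called (log2 0.31 ± 0.21, adjusted p = 0.351).

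The Omega enzymes act as thiol transferases and dehydroascorbate reductases. GstO3 was at 114 and 107 CPM in control cells, 111 and 108 in BRM-depleted cells, 384 and 518 with recBRM-V5 and 152 and 278 with recBRM-K804R-V5. It rose 4.08-fold with recBRM-V5 (log2 2.03 ± 0.28, adjusted p = 0.0030). GstO2 was at 118 and 97.6 CPM in control cells, 112 and 113 in BRM-depleted cells, 201 and 196 with recBRM-V5 and 109.8 and 168 with recBRM-K804R-V5. GstO1 was at 16.2 and 11.6 CPM in control cells, 17.9 and 17.8 in BRM-depleted cells, 25.1 and 29.7 with recBRM-V5 and 15.6 and 22.6 with recBRM-K804R-V5. These 2 genes were called with smaller differences, 1.84-fold for GstO2 (adjusted p = 0.0234) and 1.97-fold for GstO1 (adjusted p = 0.0332). GstS1, the single Sigma gene, whose enzyme conjugates lipid peroxidation products, was low at 2.11 and 2.32 CPM in control cells, 1.47 and 2.8 in BRM-depleted cells, 5 and 7.68 with recBRM-V5 and 1.3 and 2.12 with recBRM-K804R-V5. Its 2.84-fold increase with recBRM-V5 passed the threshold narrowly (adjusted p = 0.0441).

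Leaving out replicate 2 of the control cells lowered the 19 calls with recBRM-V5 to 12, all among the 19. The calls of GstE13, GstS1, GstO1, GstO2, GstD4, GstD10 and GstE11 were lost in at least one of the 20 alternative settings, and the other 12 were kept in all of them.

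**Figure D3:**
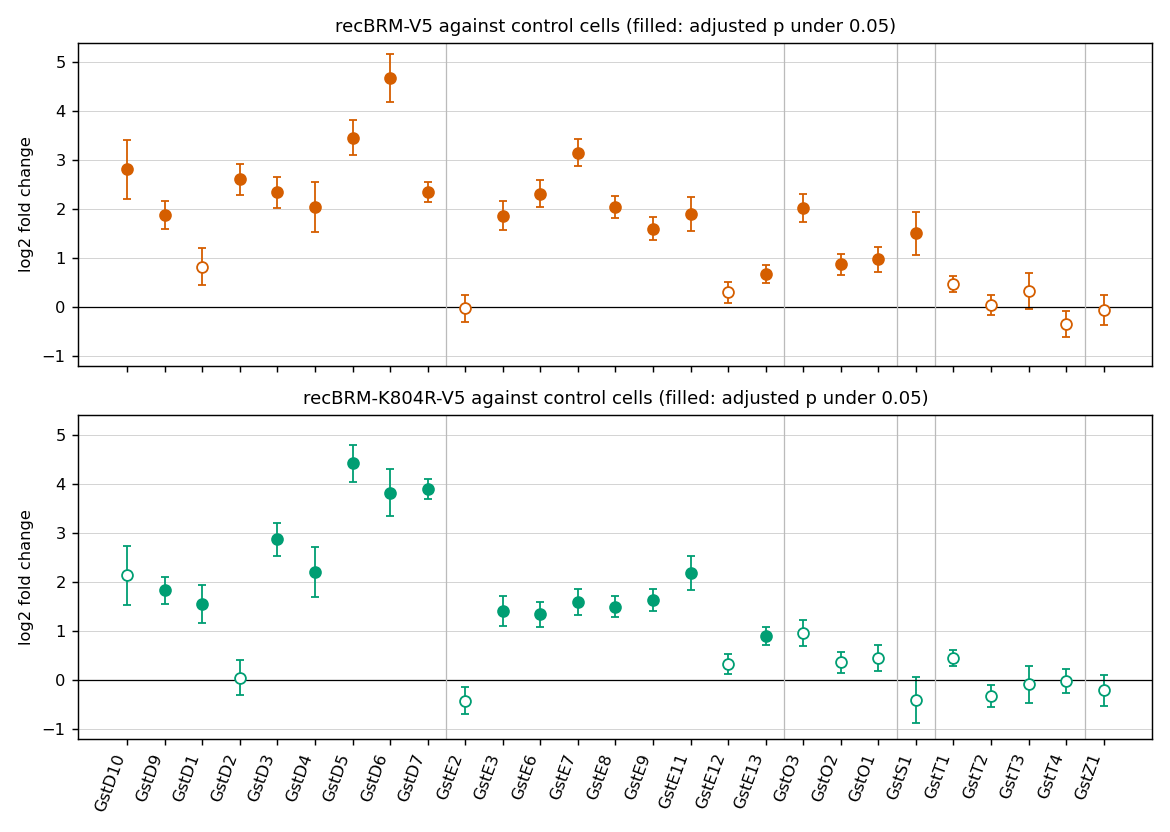
Log2 fold changes of the 27 tested GST genes against control cells with their standard errors, recBRM-V5 above and recBRM-K804R-V5 below, in order of position within the clusters, with vertical lines between classes. Filled points had an adjusted p below 0.05. The Delta and Epsilon genes are mostly filled in both panels, GstD2 lies at 2.61 above and at 0.05 below, and the Theta and Zeta points are open and near 0.

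With the ATPase-inactive recBRM-K804R-V5, 14 of 27 tested members were higher than in control cells and 0 lower, beside 6.34% of all tested genes called higher and 4.15% called lower. The higher members were 7 of 9 Delta genes and 7 of 9 Epsilon genes, while 0 of 3 Omega genes, 0 of 1 Sigma, 0 of 4 Theta and 0 of 1 Zeta genes were called. The median over tested members was 1.34, beside 0.01 over all tested genes. The comparison shares its control libraries with the one above, so both sets of values stand side by side without a test of their agreement.

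GstD5 and GstD7 changed most with the mutant protein. GstD5 was 21.4-fold above control cells (log2 4.42 ± 0.38, adjusted p = 0.000611) and GstD7 14.9-fold (log2 3.90 ± 0.21, adjusted p = 0.000189). GstD6 followed at 14.2-fold (adjusted p = 0.00277) and GstD3 at 7.30-fold (adjusted p = 0.00196). GstD1, not called with recBRM-V5, was called with recBRM-K804R-V5 at 2.93-fold (log2 1.55 ± 0.38, adjusted p = 0.0395), and its libraries of that line were above those of control cells. That call was lost when either replicate of any group but recBRM-V5 was left out. GstD2 was at the control level (log2 0.05 ± 0.35, adjusted p = 0.953). GstD10 (log2 2.14 ± 0.60, adjusted p = 0.0617) and GstO3 (log2 0.96 ± 0.27, adjusted p = 0.0647) missed the threshold although their libraries did not overlap with control cells.

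The Epsilon changes with recBRM-K804R-V5 ran from 0.90 (GstE13) to 2.18 (GstE11) on the log2 scale among the 7 called genes, and GstE3, GstE6, GstE7, GstE8 and GstE9 of the cluster all lay between 1.34 and 1.63. The count of 14 fell to 5 without replicate 2 of the control cells and to 8 without replicate 2 of recBRM-K804R-V5, the library with the higher Delta sum, and in both cases the remaining calls were among the 14. The calls kept in all 20 alternatives were GstD3, GstD5, GstD6, GstD7 and GstE9.

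Both recombinant lines received the same dsRNA and copper according to the methods, so their direct comparison tests the difference between the lines themselves. Of the 27 tested members 2 were higher with recBRM-V5 and 1 was lower, beside 2.51% of all tested genes called higher and 2.23% called lower. GstD2 was 5.88-fold higher with recBRM-V5 (log2 2.56 ± 0.33, adjusted p = 0.00593), with 13.9 and 16.1 CPM against 2 and 3.18 CPM. GstE7 was 2.96-fold higher with recBRM-V5 (log2 1.57 ± 0.26, adjusted p = 0.0150). GstD7 was 2.90-fold lower with recBRM-V5 (log2 -1.54 ± 0.19, adjusted p = 0.00516), with 59.2 and 54.3 CPM against 145 and 185 CPM. In all 3 genes the libraries of both lines stood apart, as they did in some uncalled members such as GstT2 and GstE13. GstD2 and GstD7 kept their calls in all 20 alternatives, and GstE7 lost its call in 3, which were without replicate 1 of recBRM-K804R-V5, with only the 4 libraries compared and at a threshold of 0.01 (highest adjusted p over the alternatives 0.0915).

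The remaining members did not pass the threshold in this comparison. GstS1 (log2 1.91 ± 0.44, adjusted p = 0.0528), GstO3 (log2 1.07 ± 0.27, adjusted p = 0.0748) and GstE6 (log2 0.98 ± 0.25, adjusted p = 0.0765) came closest, all with higher values with recBRM-V5 and with libraries that did not overlap. Of the 20 alternatives 6 called GstS1, 6 GstO3 and 4 GstE6. GstD5 had a difference of -0.96 ± 0.33 (adjusted p = 0.163). GstE9 and GstD9, each called higher in both lines against control cells, had differences of -0.02 ± 0.22 and 0.06 ± 0.27 between the lines. Without replicate 1 of recBRM-V5 the number of calls rose from 3 to 5. The lines also differed in brm itself, which was 10.1-fold higher with recBRM-V5 (adjusted p = 0.00126), and 4 of 9 hemocyte markers were higher with recBRM-V5 and 0 lower. The part of the transgene level and of the line in the GST differences was not tested.

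**Figure D4:**
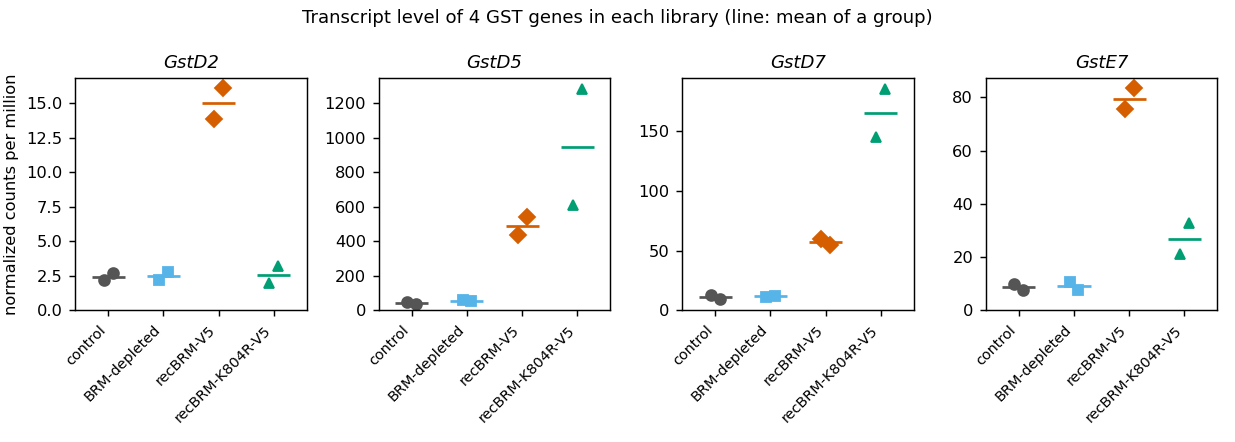
CPM of GstD2, GstD5, GstD7 and GstE7 in the 2 libraries of each group (points) with the group mean (line), on linear axes from 0 with a separate scale per gene. GstD2 is raised only in the recBRM-V5 libraries, at 13.9 and 16.1 CPM, whereas GstD7 is highest with recBRM-K804R-V5, at 145 and 185 CPM.

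Depletion of BRM alone was compared with control cells to show what the loss of endogenous BRM does to the family. No member was called in either direction, and 0% of all 8165 tested genes were called higher or lower by edgeR or by limma-voom, while DESeq2 called 19 genes, edgeR without a filter on low counts 66, edgeR on only the 4 libraries compared 44 and a crossed replicate block 6, with 0 members in each. At an unadjusted p under 0.05 there were 3 of 27 members (11.1%), beside 378 of all tested genes (4.63%). The 3 were GstE3 (log2 0.90 ± 0.30, adjusted p = 0.868), GstD3 (0.83 ± 0.31) and GstE13 (0.50 ± 0.19), all at higher values after depletion. The supplement of the study names GstE3 and GstD3 among the ATPase-independent genes that it called changed by depletion, whereas neither was called here. The brm transcript itself, at log2 -1.32 ± 0.26, was 2.5-fold lower and also missed the threshold (unadjusted p = 0.00101, adjusted p = 0.468). Over the tested members the log2 fold changes ran from -0.59 (GstT3) to 0.90, with a median of 0.04.

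Set against BRM-depleted cells, which received the same dsRNA, the recombinant lines were tested again, in comparisons that reuse the recombinant libraries. With recBRM-V5 16 of 27 tested members were higher and 0 lower, beside 11.4% of all tested genes called higher and 8.1% called lower. With recBRM-K804R-V5 12 were higher and 0 lower, beside 6.87% called higher and 4.85% called lower. GstD6 was again foremost with recBRM-V5 (22.8-fold, adjusted p = 0.00133) and GstD5 and GstD7 with recBRM-K804R-V5 (16.8-fold and 14.1-fold). GstE3, GstE13 and GstO1, called with recBRM-V5 against control cells, had no call against BRM-depleted cells in either line. The counts depended on both depleted libraries, with 10 and 9 calls for recBRM-V5 and 5 and 4 for recBRM-K804R-V5 when replicate 1 or 2 of the BRM-depleted cells was left out.

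The Theta and Zeta genes and the untested members completed the family. GstT1 had values of 68 and 57.6 CPM in control cells and 97.9 and 77.2 with recBRM-V5 (log2 0.48 ± 0.17, adjusted p = 0.0984), without overlap and without a call, and the other Theta genes had log2 differences between -0.34 and 0.34 with recBRM-V5. GstZ1, encoding the maleylacetoacetate isomerase of tyrosine breakdown, was at 19.7 and 16.7 CPM in control cells and 22.6 and 12.5 with recBRM-V5 (log2 -0.05 ± 0.31). The 8 members that did not pass the filter were GstD8, GstD11, GstE1, GstE4, GstE5, GstE10, GstE14 and GstZ2, with at most 11 counts in any library. GstE14 had 0 counts in all 4 libraries without a recombinant protein, 5 and 10 with recBRM-V5 and 6 and 0 with recBRM-K804R-V5. GstD8, between the strongly raised GstD7 and CG10035, had 0 counts in both control libraries, 0 and 3 in BRM-depleted cells, 5 and 4 with recBRM-V5 and 5 and 3 with recBRM-K804R-V5, so at this depth its level was near the limit of detection.

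The genes around the clusters were compared with the members. CG10035, which lies inside the Delta cluster between GstD8 and GstD11, had counts of 2 and 2 in control cells, 0 and 1 in BRM-depleted cells, 10 and 12 with recBRM-V5 and 46 and 49 with recBRM-K804R-V5. It was called higher in both lines and, like GstD7, lower with recBRM-V5 than with recBRM-K804R-V5 (log2 -2.04 ± 0.46, adjusted p = 0.0482). Of the 5 annotated protein-coding genes on either side of the Delta cluster 6 were tested, and 1 was called with recBRM-V5, Tim17a1, the gene next to GstD10, with 0 counts in both control libraries and 15 and 23 with recBRM-V5, which is at least 7.41-fold higher against a floor of 3 counts per library. With recBRM-K804R-V5 0 of the 6 were called. Around the Epsilon cluster 0 of 4 tested neighbors were called in either line, with log2 fold changes between -0.48 and 0.20, and imd, which overlaps the end of GstE9 by 40 bases on the other strand, was not called (log2 0.64 ± 0.30 with recBRM-V5, adjusted p = 0.179). Around the Omega cluster all 10 neighbors were tested. With recBRM-V5 1 was higher, the zinc transporter gene foi (log2 1.75 ± 0.22, adjusted p = 0.00201), and 1 lower, CG43078 (log2 -1.48 ± 0.36, adjusted p = 0.0262). With recBRM-K804R-V5 2 were higher, foi (log2 1.44 ± 0.21, adjusted p = 0.00552) and CG6638 (log2 1.33 ± 0.30, adjusted p = 0.0297), and 0 lower. These genes were named after their values were seen, and foi is among the genes that the study set aside as induced by copper sulfate.

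Other genes of glutathione metabolism were read from a list of 30 names, of which 22 were tested. With recBRM-V5 6 were higher and 0 lower, and with recBRM-K804R-V5 4 were higher and 1 lower, beside the shares of all genes given above. Gclc, the catalytic subunit of the rate-limiting enzyme of glutathione synthesis, was at 58.1 and 65.6 CPM in control cells, 62.8 and 48.9 in BRM-depleted cells, 252 and 593 with recBRM-V5 and 144 and 254 with recBRM-K804R-V5. It was called in both lines, whereas its modifier subunit Gclm was in neither. MRP, an exporter of glutathione conjugates, was at 275 and 279 CPM in control cells, 699 and 1117 with recBRM-V5 and 490.1 and 559 with recBRM-K804R-V5, and was called in both lines. The exporter Mrp4 (log2 0.91 ± 0.21), the peroxidase Gtpx (1.36 ± 0.18) and the thioredoxin Trx2 (0.84 ± 0.16) were called with recBRM-V5, and the gamma-glutamyl transpeptidase Ggt-1, on 2 to 37 counts per library, with recBRM-K804R-V5. The Omega-class gene se, the synthase of a precursor of the red eye pigment, had 0 and 3 counts in control cells, 43 and 56 with recBRM-V5 and 21 and 25 with recBRM-K804R-V5, and was called in both. Between the lines, 1 of the 22 was called, Gtpx, higher with recBRM-V5 (log2 1.05 ± 0.18, adjusted p = 0.0174), and after depletion 0 were. Against control cells TrxT was the only gene of the list called lower, with 16 and 15 counts in control cells and 0 in both recBRM-K804R-V5 libraries, at least 4.66-fold lower. Against BRM-depleted cells the glutaredoxin Grx1 was lower with recBRM-V5 (log2 -0.93 ± 0.25, adjusted p = 0.0345).

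Genes of the copper response differed between the same groups. MtnA, a metallothionein that binds excess copper, was at 188 and 223 CPM in control cells, 214 and 195 in BRM-depleted cells, 6763 and 10171 with recBRM-V5 and 7429 and 5239 with recBRM-K804R-V5. MtnD had 0 counts in all libraries without a recombinant protein and was at least 313-fold higher with recBRM-V5 and at least 205-fold higher with recBRM-K804R-V5 than in control cells, and MtnE was at least 128-fold and 77.6-fold higher. In both lines 5 of 5 tested genes of the copper list (MtnA, MtnB, MtnD, MtnE and the copper importer Ctr1B) were higher than in control cells, and 0 of 5 differed between the lines. The part of copper in the GST increase cannot be told apart from that of the recombinant proteins.

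ChIP-seq asked which genes endogenous BRM occupied in S2 cells. The deposited signal is an average coverage per gene, and every member passed the minimum of 0.5 set on the Input signal. By limma on log2(signal + 0.1), in a fit that did not pair IP and Input, 0 of 35 members differed between IP and Input, beside 0% of the 13557 genes tested, and at an unadjusted p under 0.05 there were 0 members and 6 genes. The design has 2 libraries on each side.

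The replicates pointed in opposite directions over most members. In replicate 1 the IP/Input ratio was above 1 in 29 of 35 members, with a median of 1.22 (all genes 0.937), and in replicate 2 it was above 1 in 10, with a median of 0.835 (all genes 0.934). In 21 members the ratio was above 1 in replicate 1 and below 1 in replicate 2. Of the 13557 genes with enough Input signal, 4271 were above 1 in replicate 1 and 5295 in replicate 2. The ratio was above 1 and then below 1 in 3323 of them. GstE6 had the highest ratio of replicate 1, with an IP signal of 6.36 against an Input signal of 3.25 (ratio 1.96), but in replicate 2 the IP signal was 1.69 against 2.51 (ratio 0.675). GstD1 had 5.44 against 3.16 (ratio 1.72) and then 1.77 against 2.62 (ratio 0.676). GstO1 was low in both, at 0.967 and 0.468. Across all tested genes the log2 ratios of both replicates had a correlation of -0.282, as a description across genes, so the replicates disagreed beyond this family.

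The methods set an IP/Input ratio of 1.1 as the limit for a bound gene. Here it was applied to each replicate and to the mean of both ratios. In the mean 11 of 35 members reached it (beside 15.6% of genes), in replicate 1 21 of 35 (beside 15.9%) and in replicate 2 6 of 35 (beside 25.8%). The methods describe averages over the gene body with flanks, and merged replicates for plots, so this is not the study's own call. Its bound targets include GstD3, GstE8 and GstE9, which stayed below the limit in the mean here, as well as GstD5 and GstD7. Both replicates reached the limit in 2 members, GstD5 (ratios 1.28 and 1.17) and GstD7 (ratios 1.25 and 1.12), beside 1.37% of genes. These neighbors on the chromosome, separated by GstD6 with ratios of 1.17 and 0.837, were also the members with the largest fold changes with recBRM-K804R-V5, an observation on 2 genes that was made after their values were seen. The rank of GstD7 (log2 3.90 ± 0.21) over GstD6 (log2 3.82 ± 0.48) lay within their standard errors. By class, 5 of 11 Delta and 5 of 14 Epsilon genes reached the limit in the mean, with the Sigma gene GstS1 (ratios 1.00 and 1.21) as the eleventh member, and 0 of 3 Omega, 0 of 4 Theta and 0 of 2 Zeta genes did. Of the 9 genes next to the Delta cluster and the 8 next to the Epsilon cluster that had enough Input signal, 0 reached it in the mean. In replicate 1 alone, 1 gene next to the Delta cluster and 2 next to the Epsilon cluster reached it. Of the 10 genes next to the Omega cluster, 2 reached it in the mean.

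**Figure D5:**
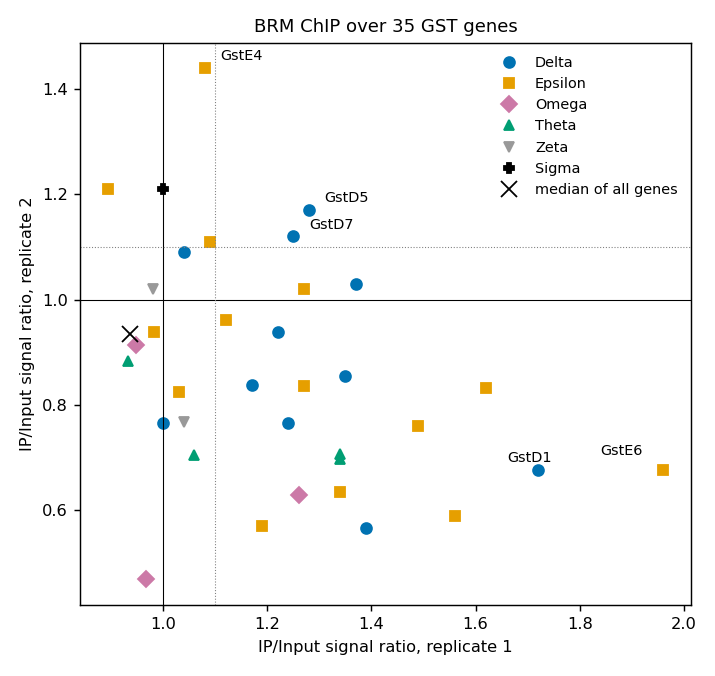
IP/Input signal ratio of BRM over each of the 35 GST genes in replicate 1 (horizontal) and replicate 2 (vertical), colored by class, with solid lines at a ratio of 1, dotted lines at 1.1 and a cross at the median of all genes (0.937 and 0.934). Most members lie to the right of 1 and below 1, and only GstD5 and GstD7 lie beyond 1.1 on both axes.

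The ratio also moved with the transcript level, in opposite ways in the replicates. Over the 35 members the Spearman correlation of the IP/Input ratio with the level per kilobase in control cells was 0.49 in replicate 1 and -0.53 in replicate 2, and over 11482 genes it was 0.27 and -0.45. These are descriptions across genes that share the same libraries, and the cause of the disagreement between the replicates was not tested.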

How the data were processed

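The authors deposited raw read counts per gene for 8 RNA-seq libraries and an average coverage signal per gene for 4 ChIP-seq libraries. The submitters' processing notes name TopHat2, Bowtie and build dm3, while the methods name build BDGP6 with TopHat2 and HTSeq for the counts of paired-end libraries from a directional kit. How reads that match related copies were treated is not given in the sources used here.

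Counts of all 8 libraries were fitted with edgeR 4.0.16 (R 4.3.3), with TMM scaling, filterByExpr, which left 8165 genes, and quasi-likelihood tests on 4 groups, two-sided, with Benjamini-Hochberg adjustment over all tested genes and a threshold of 0.05. The common biological coefficient of variation was 0.192. Deposited ChIP signal was tested with limma 3.58.1 on log2(signal + 0.1) over the 13557 genes whose Input reached 0.5 in each replicate. Biological replicates are named as such in the labels, with 2 libraries per group. The RNA-seq p-values rest on a spread between replicates that was estimated over all 4 groups together and moderated across genes. Levels between genes were compared per kilobase of exon (BDGP6.54 annotation). Library sizes of 6600562 to 10287294 counts set the precision for low genes, and the floors (3 counts) cover counting error only. The standard errors of the RNA-seq fold changes come from the edgeR fit and include the spread between libraries. The tests were checked on simulated data.

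The members and gene lists were chosen with earlier results of these data known, and the promoter windows, lists and alternatives were set with that knowledge. All 35 members are accounted for; values of every library are given for members called in at least 1 of 6 comparisons and for the 5 of highest level in control cells, and others by counts or where a class is described. Of the 30 listed glutathione names 27 were in the table, GstO4 being a synonym of the listed se, and alphaTry, vas and nos were not analysed here. Markers of neurons, gut and germ line were read as well: 2 neuron markers were tested, and elav was lower in both lines and brp higher with recBRM-V5, while the tested gut and germ line markers were not called. Alternatives covered normalization, filters, DESeq2 1.42.0, limma-voom, the replicate block, the threshold and leaving out each library.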

Additional observations from a re-analysis of the deposited data

Results flagged for a closer look

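Both recombinant lines differed from each other, by the direct test between them, in 3 members, and the part of the transgene level and of the line was not tested. The log2 difference of recBRM-V5 against recBRM-K804R-V5 was -1.54 for GstD7, 2.56 for GstD2 and 1.57 for GstE7. In each of them both libraries of one line stood apart from both libraries of the other. That adds no support to the test, since the genes were picked by it from the same libraries.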

How the results depend on the processing

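Over the 6 comparisons, 64 calls of single members were refitted under 20 alternatives each. Of these 1280 results 1143 kept their direction and call, 137 kept the direction and lost the call, and 0 turned in direction, while 79 results of uncalled members became calls.

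For recBRM-V5 against control cells (19 members called), leaving out single libraries gave 12 to 19 calls. For recBRM-K804R-V5 against control cells (14) it gave 5 to 16, and a threshold of 0.01 gave 9. For recBRM-V5 against recBRM-K804R-V5 (3) it gave 3 to 5, while no filter on low counts gave 8, DESeq2 gave 6 and a threshold of 0.10 gave 6, and only the 4 libraries compared and a threshold of 0.01 gave 2 each. Against BRM-depleted cells, recBRM-V5 (16) gave 9 to 20 calls and recBRM-K804R-V5 (12) gave 4 to 14, with 7 at a threshold of 0.01. Where 1 library was left in a group, its spread was taken from the other groups.

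With the replicate number as a block the calls were 18 and 14 against control cells, 0 after depletion, 4 between the lines, with GstS1 added, and 16 and 12 against BRM-depleted cells. The numbers were not taken as pairs, since the correlations of same-numbered deviations ran from -0.32 to 0.626. A crossed block, chosen after seeing the data, gave 6 calls between the lines. For ChIP-seq, same-numbered IP and Input deviated together (correlation 0.691), and with the replicate block limma again called 0 members and 0 genes.

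The 11 members at a mean IP/Input of at least 1.1 became 22 with a limit of 1.0, 4 with 1.2, 2 with 1.1 in both replicates and 18 with ratios divided by their median. Without replicate 1 there were 6 and without replicate 2 there were 21. The cause of these differences was not tested. The 8 untested members had too few counts for a test, and whether depth or silence of these genes sets this was not tested.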
